A study of Mus musculus with 2 samples.

Results

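Translation initiation and elongation factors are the proteins that load ribosomes onto mRNA and then move them along it. Their genes were taken by symbol, as every symbol that starts with Eif1, Eif2, Eif3, Eif4, Eif5, Eif6, Eef1 or Eef2, leaving out the eIF2 kinases Eif2ak1 to Eif2ak4 and symbols that mark pseudogenes or unnamed clones. This rule used no measured value and gave 66 of the 32285 genes counted. The 66 genes lie on 20 chromosomes, with annotated lengths from 1858 to 215487 bases.

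The data are single-nucleus RNA sequencing of epididymal WAT, a visceral fat depot, with 1 library per group. Both groups were male C57BL/6N mice, 8 weeks old at the start, fed a high-fat diet (HF) over 6 weeks and through 8 further weeks in which they were injected into the peritoneum 3 times a week. The HF-PBS mice received PBS, and the HF-HHT mice received homoharringtonine (HHT) at 0.545 mg/kg, dissolved in DMSO and diluted in PBS. Nuclei of 3 mice were pooled in each library, so the spread between mice is not visible and no test across animals exists. The transcripts described here code for factors that work with the ribosome, to which HHT binds, and the comparison asks how their levels in the nuclei of each cell class differed between HF-HHT and HF-PBS.

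In initiation, eIF2 brings the initiator tRNA to the small ribosomal subunit, eIF3 holds the complex together, and the cap-binding eIF4 proteins recruit it to the mRNA before eIF5 and eIF5B release the factors and join the large subunit. In elongation, eEF1A delivers each charged tRNA, the eEF1B proteins recharge eEF1A with GTP, and eEF2 moves the ribosome forward by a codon. HHT binds the large ribosomal subunit and blocks the early steps of elongation. Cells adjust these steps largely at the protein level, through phosphorylation of eIF2, of the eIF4E-binding proteins and of eEF2, none of which RNA in nuclei shows.

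The HF-PBS library held 76197757 UMIs (unique molecular identifiers, each a counted RNA molecule) and the HF-HHT library 73313558, and 6653 and 6446 nuclei were kept, with medians of 4314 and 3966.5 UMIs. Of the kept nuclei, 13 barcodes occurred in both libraries. Classes were named from marker genes as adipocyte-like, adipocyte precursor (APC)-like, macrophage-like and so on, and are written without the suffix. Adipocytes numbered 154 nuclei in HF-PBS and 843 in HF-HHT, APCs 751 and 672, and macrophages 3587 and 2226. Their own markers were detected in both libraries, with summed levels of 7336 and 8504 CPM (UMIs scaled by all UMIs of the class) in adipocytes, 6470 and 5766 in APCs, and 6195 and 4615 in macrophages. Clusters with markers of duct epithelium (686 nuclei) and of ciliated epithelium (118 nuclei) held HF-HHT nuclei only. Markers of red blood cells were higher in HF-HHT in every main class, for example 6.42 against 171 CPM in macrophages. The macrophage markers, a list that includes the lipoprotein lipase gene Lpl, summed to 2014 CPM in HF-PBS and 1192 in HF-HHT adipocytes. That sum was not split by marker, so how much of it is RNA of macrophages is not known. Whether RNA of other classes has a part in the results was not tested.

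Sequence near the start sites of 6 members is shown first, as examples of the motifs searched in members named below. Promoters, from 250 bases before to 50 after the RefSeq start on build GRCm38.p6, were matched for 50 of the 66 members. Capitals mark the motif found by a search of both strands, with 14 bases on each side.
Eef2, chr10:81176619-81176654, plus strand, CRE motif (TGACGTCA): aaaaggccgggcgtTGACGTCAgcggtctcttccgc
Eef1b2, chr1:63176818-63176852, plus strand, ETS motif (CCGGAAG): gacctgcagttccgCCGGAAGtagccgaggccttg
Eif3d, chr15:77970874-77970908, minus strand, ETS motif on the opposite strand: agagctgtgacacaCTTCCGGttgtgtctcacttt
Eif3k, chr7:28981913-28981946, minus strand, E-box (CACGTG): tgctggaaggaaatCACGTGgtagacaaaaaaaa
Eef2k, chr7:120842786-120842819, plus strand, E-box: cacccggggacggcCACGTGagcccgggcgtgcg
Eif3f, chr7:108934397-108934439, plus strand, run of C and T on the gene strand: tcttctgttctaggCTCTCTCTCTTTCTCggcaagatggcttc

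A gene was counted for a motif if the promoter of any of its starts held it. The ETS motif stood in 32.0% of the 50 matched members, against 9.93% of all 27025 matched genes and 19.3% of the 10848 measured in macrophages. The E-box stood in 28.0%, against 8.09% and 11.4%. A run of at least 10 C or T within 50 bases of the start, the kind of sequence that begins the transcripts of many ribosomal proteins and elongation factors, stood in 34%, against 20.6% and 20.3%. The CRE occurred in 2.0%, against 2.03% and 3.47%, the TATA box (TATAAA) in 10.0%, against 15.7% and 9.45%, and the response element TGATGNAA in 4.0%, against 4.51% and 2.85%. These are matches of letters in a window, and no binding was measured.

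Within a class, each library gave a sum of UMIs per gene, which was scaled to CPM, and the 2 libraries were compared as the log2 ratio of HF-HHT over HF-PBS. A gene is called measured with at least 20 UMIs over both libraries. Intervals are exact 95% limits that cover counting error only, and a difference of at least 1.5-fold is a size and not a test. Of the 66 members, 60 were measured in adipocytes, APCs and macrophages alike, 3 in 1 or 2 of these classes, and 3 (Eef1a2, Eif4e1b and Eif2c5) in none. Eef1a2, the eEF1A form of muscle and neurons, had 3 UMIs in HF-PBS macrophages and none in the other main sums. Since the median gene was itself higher in HF-HHT, by 0.31 in adipocytes, 0.17 in APCs and 0.16 in macrophages on the log2 scale, counts are also given relative to it.

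The factors as a group sat at, above or below the typical gene depending on the class. In adipocytes the median log2 ratio of the 60 measured members was 0.17, below the 0.31 of all 12592 measured genes, and their summed level was 2440 CPM in both libraries. In APCs the median of 63 members was 0.17, the same as for all 12162 genes, with sums of 2818 and 2919 CPM. In macrophages the median of 61 members was 0.31, against 0.16 for all 14373 genes, and the sum was 2917 CPM in HF-PBS and 3475 in HF-HHT, a log2 ratio of 0.25 (0.23 to 0.27). The same sum in macrophages remained at 0.09 relative to the median gene.

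Members past 1.5-fold were counted beside all measured genes. In adipocytes 10 members were higher in HF-HHT, where 35.4% of all measured genes were, and 3 were lower, where 12.4% were. Relative to the median gene 4 were higher (24.0% of all genes) and 8 lower (20.5%). APCs had 16 higher members (22.9% of all genes) and 2 lower ones (8.12%), or 9 (16.5%) and 2 (11.6%) relative to the median gene. Macrophages had 16 higher (25.8% of all genes) and 0 lower (8.34%), or 11 (19.7%) and 0 (11.8%) relative to the median gene. The share of members that were higher therefore stood near the background in APCs and macrophages and below it in adipocytes. Of the 60 members measured in all 3 classes, 2 were higher in each (Eif2b4 and Eif3k), 8 in 2 classes and 18 in 1, while 4 were lower in 1 class, none in more, and 30 were past 1.5-fold in no class. The same overlap was not counted for all measured genes, so no background stands beside these numbers.

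**Figure D1:**
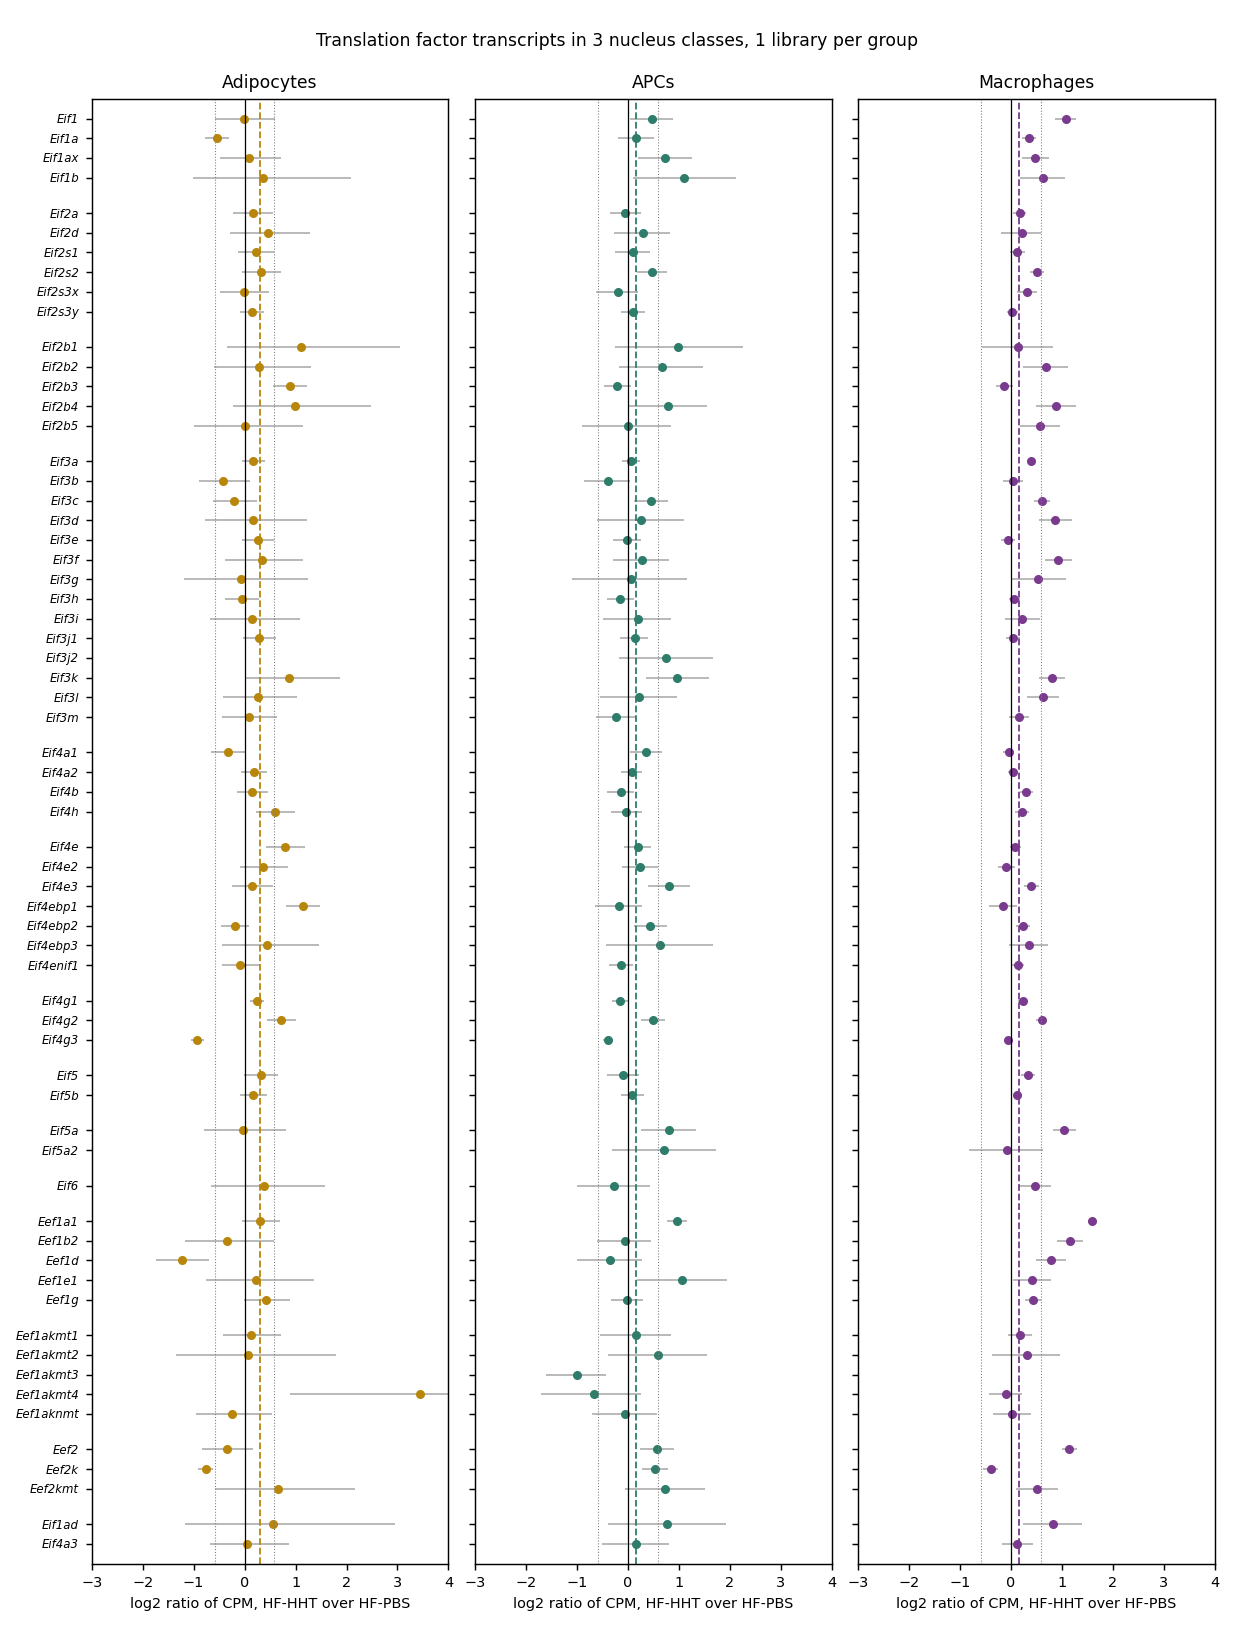
Log2 ratio of CPM (HF-HHT over HF-PBS, x axis) of each member, by role, in adipocytes, APCs and macrophages, with exact 95% counting intervals as bars. Dotted lines mark 1.5-fold, the dashed line marks the median of all measured genes (0.31, 0.17 and 0.16), and Eef1a1, Eef1b2, Eef1d and Eef2 lie to the right of it in macrophages and at it or to its left in adipocytes.

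Eif1 and Eif1ax code for the small factors that keep the scanning ribosome open until it meets a start codon. Eif1 was at 15.5 and 15.4 CPM in HF-PBS and HF-HHT adipocytes, at 21.9 and 30.4 in APCs, and at 17.4 and 36.5 in macrophages, where the log2 ratio was 1.07 (0.86 to 1.28). Eif1ax was at 13.0 and 21.7 CPM in APCs (0.74, 0.21 to 1.26), 13.5 and 18.7 in macrophages and 14.5 and 15.5 in adipocytes. The autosomal copy Eif1a was lower in adipocytes, from 95.4 to 65.1 CPM (-0.55, -0.79 to -0.31), and was at 52.9 and 67.4 in macrophages. Eif1 and Eif1b, and Eif1a and Eif1ax, are close in sequence, so reads may be split between them and these values are uncertain.

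None of the 6 genes placed with eIF2 by symbol, not all of which code for its subunits, differed by 1.5-fold in any of the 3 main classes. Of all genes in adipocytes, APCs and macrophages, 35.4%, 22.9% and 25.8% were higher and 12.4%, 8.12% and 8.34% lower. In T and NK nuclei 3 of the 6 were higher (21.0% of all genes), and in B cells 3 were higher (27.0%) and 1 lower (20.4%). Endothelial nuclei and monocyte and dendritic nuclei had 1 of 5 measured higher (23.6% and 18.6%), and mesothelial and dividing nuclei had 0 (23.6% and 19.1%). Eif2s1, the alpha subunit that stress kinases phosphorylate, had log2 ratios of 0.22, 0.09 and 0.13 in adipocytes, APCs and macrophages, and the beta subunit Eif2s2 had 0.32, 0.48 and 0.51. The gamma subunit has an X and a Y copy. Eif2s3y, the Y copy, was at 92.4 and 102 CPM in adipocytes, 83.3 and 89.7 in APCs, and 97.3 and 99.1 in macrophages, and over all 9 classes compared its level in either library stayed between 64.7 and 119 CPM. The X copy Eif2s3x was at 25.2 and 31.3 CPM in macrophages (0.31, 0.11 to 0.51), 22.5 and 22.3 in adipocytes, and 30.3 and 26.4 in APCs.

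The eIF2B complex recharges eIF2 with GTP and is the enzyme that phosphorylated eIF2 inhibits. In adipocytes the summed level of its 5 subunits was 58.4 CPM in HF-PBS and 101 in HF-HHT, with 0.79 (0.51 to 1.08) as log2 ratio, and in APCs (93.2 and 93.6 CPM) and macrophages (61.3 and 68.1) the sums lay much closer. Eif2b3, the gamma subunit, was at 42.4 and 78.4 CPM (0.88, 0.56 to 1.22) in adipocytes. That gene had log2 ratios of -0.21 in APCs and -0.13 in macrophages, with intervals that reach above 0. Eif2b4, the delta subunit, was higher in each main class, at 3.0 and 5.92 CPM in adipocytes, 6.11 and 10.5 in APCs, and 5.17 and 9.54 in macrophages, and only the macrophage interval (0.48 to 1.29) excluded 0. Eif2b1, the alpha subunit, rested on 4 and 43 UMIs in adipocytes (1.11, -0.35 to 3.05) and 12 and 13 in APCs. Eif2b2, the beta subunit, was at 4.61 and 7.39 CPM in macrophages (0.68, 0.24 to 1.12), and Eif2b5, the catalytic subunit, at 6.29 and 9.36 (0.57, 0.19 to 0.96).

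eIF3 is the scaffold on which the initiation complex is built. Of the 14 eIF3 genes, 13 were measured in adipocytes and macrophages and 14 in APCs, and none was at least 1.5-fold lower in HF-HHT. In adipocytes 1 was higher and in APCs 2 were, below the shares of all genes (35.4% and 22.9%), and in macrophages 5 were, above that share (25.8%). Relative to the median gene, 0 were higher in adipocytes (24.0% of all genes), 1 in APCs (16.5%) and 3 in macrophages (19.7%). On that scale 1 was lower in adipocytes (20.5% of all genes), 0 in APCs (11.6%) and 0 in macrophages (11.8%). Eif3k was the member that recurred. Its CPM was 5.99 and 10.9 in adipocytes (0.87, 0.00 to 1.86), 8.87 and 17.4 in APCs (0.97, 0.35 to 1.59), and 13.3 and 23.3 in macrophages (0.81, 0.56 to 1.06). Of the 8 classes in which it was measured, 7 were past 1.5-fold, all higher.

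Eif3f and Eif3d differed in macrophages, from 11.9 to 22.7 CPM (0.93, 0.67 to 1.19) and from 7.73 to 14.1 CPM (0.87, 0.54 to 1.20). Eif3a, the largest subunit, was at 94.9 and 107 CPM in adipocytes, 136 and 142 in APCs, and 157 and 204 in macrophages (0.38, 0.31 to 0.46). Eif3b had log2 ratios of -0.42, -0.40 and 0.04 in adipocytes, APCs and macrophages, and Eif3c had -0.20, 0.46 and 0.60. Eif3j2 is a short copy of the loosely bound subunit gene Eif3j1, so reads may be assigned to either, and it was measured in APCs alone, at 4.53 and 7.59 CPM, against at most 0.50 CPM in adipocytes and macrophages of either library.

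Eif4e binds the mRNA cap, and the 4E-binding proteins hold it back until mTORC1 phosphorylates them. In adipocytes both the cap-binding protein and an inhibitor were higher in HF-HHT. Eif4e was at 32.0 and 55.4 CPM (0.79, 0.42 to 1.19) and Eif4ebp1 at 41.5 and 91.4 (1.14, 0.82 to 1.48). Its adipocyte level was 2.34-fold that of macrophages in HF-PBS and 5.75-fold in HF-HHT. In APCs Eif4ebp1 was at 24.0 and 21.3 CPM and in macrophages at 17.7 and 15.9, with intervals that hold 0. Both adipocyte clusters formed at a finer resolution showed the same difference, with log2 ratios of 1.07 (0.69 to 1.47) and 1.12 (0.48 to 1.85).

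Eif4ebp2, the related inhibitor that predominates in brain, had log2 ratios of -0.20 in adipocytes, 0.44 in APCs and 0.23 in macrophages. Eif4e3, a divergent cap-binding protein, was at 21.1 and 36.9 CPM in APCs (0.81, 0.40 to 1.21), 30.5 and 33.6 in adipocytes, and 44.2 and 58.4 in macrophages. It was above 0 in 9 of 9 classes and past 1.5-fold in 7. Eif4enif1, which carries eIF4E into the nucleus, had log2 ratios of -0.09, -0.13 and 0.14 in adipocytes, APCs and macrophages.

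eIF4G bridges the cap-bound eIF4E and the eIF3-bound ribosome. The 3 genes of the family differed from each other in adipocytes. Eif4g3, at 381 CPM in HF-PBS and 200 in HF-HHT, was lower (-0.93, -1.05 to -0.81). Eif4g1 was at 249 and 294 CPM (0.24, 0.10 to 0.38), and Eif4g2, a relative that does not bind eIF4E, was at 55.4 and 91.3 (0.72, 0.43 to 1.02). Eif4g3 spans chr4:137993022-138208508 on the plus strand, 215487 bases, and is the longest of the members.

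Eif4g3 was also lower in APCs, from 623 to 473 CPM (-0.40, -0.49 to -0.30), and in endothelial (426 to 261 CPM) and mesothelial nuclei (727 to 357 CPM, -1.03, -1.17 to -0.88). Macrophages barely differed, at 549 and 528 CPM, although 4 of their 5 larger finer clusters had log2 ratios between -0.26 and -0.37. Dividing nuclei were the only class with a higher level, 403 and 494 CPM (0.29, 0.15 to 0.44). Eif4g2 was higher throughout, above 0 in 9 of 9 classes and past 1.5-fold in 6, among them macrophages with 69.6 and 106 CPM (0.60, 0.49 to 0.71). The helicase gene Eif4a1, which unwinds the leader of the mRNA, had log2 ratios of -0.33, 0.35 and -0.04 in adipocytes, APCs and macrophages, and its paralog Eif4a2 had 0.18, 0.08 and 0.04. Eif4h, which stimulates the helicase, was at 33.5 and 50.8 CPM in adipocytes (0.60, 0.23 to 0.99) and had log2 ratios of -0.03 and 0.22 in APCs and macrophages.

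Among the factors of subunit joining, Eif5, which triggers GTP hydrolysis on eIF2, had log2 ratios of 0.32, -0.08 and 0.33 in adipocytes, APCs and macrophages, and Eif5b, which joins the subunits, had 0.16, 0.09 and 0.13. Eif5a, whose hypusine-bearing protein keeps ribosomes from stalling, was at 8.49 and 8.33 CPM in adipocytes, 12.2 and 21.3 in APCs (0.80, 0.26 to 1.34), and 14.6 and 30.1 in macrophages (1.05, 0.82 to 1.28). In T and NK nuclei it was at 15.1 and 58.1 CPM, a log2 ratio of 1.94 (1.20 to 2.74). Eif5a2, the paralog, was measured in APCs (3.74 and 6.15 CPM) and macrophages (2.47 and 2.34 CPM). Eif6, which keeps the large subunit from joining too early, had log2 ratios of 0.37, -0.26 and 0.47 in adipocytes, APCs and macrophages.

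In elongation, the roles differed. In macrophages the eEF1 genes had the widest difference of any role, with a summed level of 140 CPM in HF-PBS and 319 in HF-HHT (log2 ratio 1.19, 1.12 to 1.26). Eef1a1 codes for the factor that delivers charged tRNA to the ribosome. Its level was 69.8 CPM in HF-PBS and 211 in HF-HHT macrophages (1.60, 1.5 to 1.69), 76.8 and 150 in APCs (0.97, 0.76 to 1.17), and 35.0 and 43.2 in adipocytes (0.31, -0.06 to 0.69), where it lay at the median gene. Eef1a1 (ENSMUSG00000037742) lies at chr9:78478449-78489151 on the minus strand. It was above 0 in 9 of 9 classes and past 1.5-fold in 7, including T and NK (155 and 336 CPM), mesothelial (277 and 513 CPM) and dividing nuclei (47.2 and 137 CPM).

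The exchange factor genes did not all follow. Eef1b2 was at 11.3 and 25.2 CPM in macrophages (1.15, 0.90 to 1.41) but at 18.1 and 17.4 in APCs and 7.49 and 5.92 in adipocytes. Eef1g, the structural subunit, had log2 ratios of 0.42, -0.02 and 0.43 in adipocytes, APCs and macrophages. Eef1d, another exchange subunit, was at 24.0 and 10.2 CPM in adipocytes (-1.23, -1.74 to -0.70) and at 9.40 and 16.2 in macrophages (0.78, 0.48 to 1.08), so the intervals of these 2 classes lay on opposite sides of 0. In APCs it was at 14.2 and 11.2 CPM, with an interval that holds 0.

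The 5 methyltransferases that modify lysines or the first residue of eEF1A included a gene detected mainly in APCs. Eef1akmt3 was at 23.8 CPM in HF-PBS and 11.9 in HF-HHT APCs (-1.0, -1.60 to -0.43), and at 0.37 and 0.28 in macrophages, from 8 and 3 UMIs, and 0.50 and 0.50 in adipocytes. Free RNA, the RNA outside nuclei, held it at 1.67 and 0.75 CPM. Eef1akmt4 in adipocytes rested on 1 UMI in HF-PBS and 54 in HF-HHT, for a ratio of 3.44 (0.90 to 8.77) on the log2 scale, and was at 7.49 and 4.70 CPM in APCs. Eef1akmt4 may share its locus with Ece2, which was not checked here, so its counts are uncertain.

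Eef2 codes for the translocase, and Eef2k for the kinase that phosphorylates and inhibits it. In macrophages Eef2 was at 33.2 CPM in HF-PBS and 73.5 in HF-HHT (1.15, 1.0 to 1.30), while Eef2k was at 61.4 and 46.6 (-0.40, -0.55 to -0.25), the lowest ratio of the 61 measured members. In adipocytes Eef2k was again lower, at 243 and 143 CPM (-0.76, -0.91 to -0.61), and Eef2 was at 22.0 and 17.3 (-0.35, -0.83 to 0.16). APCs differed from both, with Eef2 at 33.5 and 49.9 CPM (0.57, 0.24 to 0.91) and Eef2k at 58.1 and 84.6 (0.54, 0.29 to 0.79).

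Eef2k was higher in T and NK nuclei, at 20.9 and 49.2 CPM (1.24, 0.55 to 1.95), so its direction depended on the class. Within macrophages its ratio also varied among finer clusters, from -1.16 (-1.79 to -0.53) to 0.60 (0.06 to 1.12). Eef2kmt, which methylates eEF2, was at 3.0 and 4.72 CPM in adipocytes, 6.11 and 10.1 in APCs, and 5.59 and 7.95 in macrophages.

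**Figure D2:**
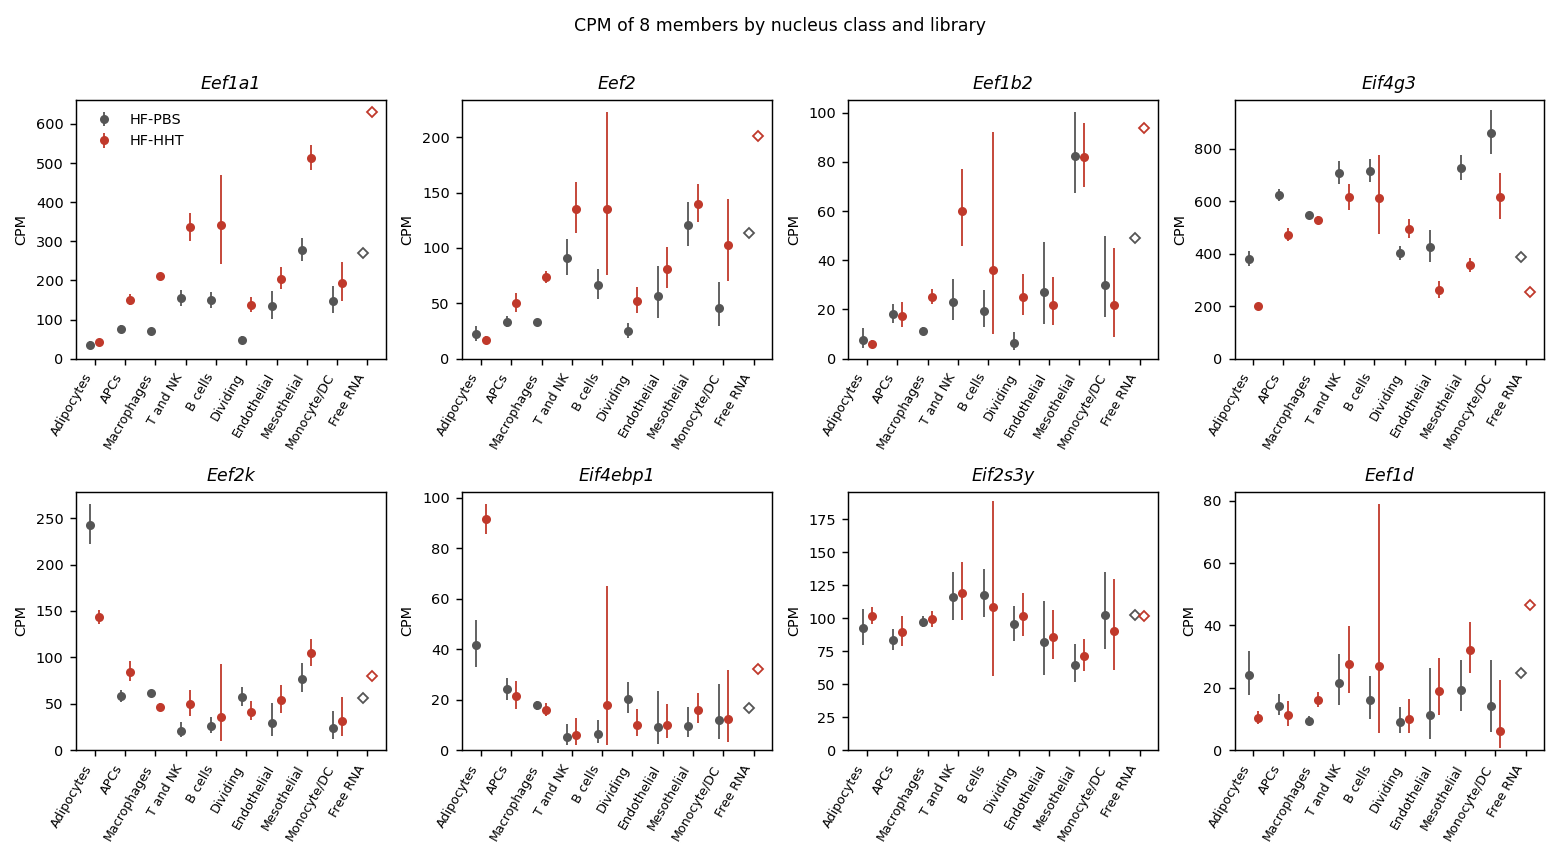
CPM of 8 members (y axis, linear from 0) in each of 9 nucleus classes and in free RNA, HF-PBS in grey and HF-HHT in red, with exact 95% counting intervals as bars. Eef1a1 was higher in HF-HHT in every class and in free RNA, Eif4g3 lower in every class but dividing nuclei, and Eif2s3y nearly level.

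Macrophages were not uniform, so their finer clusters were compared on their own, a step added after the class values were seen. A cluster that made up 356 HF-PBS and 845 HF-HHT nuclei had the highest Eef1a1, at 203 and 332 CPM, and the highest Eef2, at 85.2 and 121 CPM. In the 5 clusters with at least 100 nuclei in each library, Eef1a1 had log2 ratios between 0.71 and 1.43 and Eef2 between 0.47 and 0.82. The value of the whole class, 1.60 for Eef1a1 and 1.15 for Eef2, was thus above that of each cluster, and Eef2 was past 1.5-fold in 2 of the 5. The median over members was 0.30, 0.33, 0.16, 0.24 and -0.05 in these clusters, against 0.14, 0.14, 0.10, 0.11 and 0.17 for all genes. In adipocytes the finer clusters held 114 and 507 nuclei, and 40 and 336 nuclei, and both showed Eif4g3 (-0.86 and -1.15), Eef1d (-0.96 and -1.94) and Eef2k (-0.76 and -0.42) lower and Eif2b3 (0.86 and 0.82) higher. Their medians over members were 0.22 and -0.17, against 0.31 and 0.15 for all genes.

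Free RNA was richer in several of the same transcripts in HF-HHT. It held Eef1a1 at 269 CPM in HF-PBS and 630 in HF-HHT, Eef2 at 113 and 201, and Eef1b2 at 49.1 and 93.6, and the summed level of the members in it was 3570 and 4601 CPM. Free RNA was estimated to make up 5.49% and 5.97% of macrophage UMIs, 11.3% and 10.7% of those of APCs, and 5.08% and 3.87% of those of adipocytes. The macrophage share was set by markers of duct epithelium, a class that held HF-HHT nuclei only. Correlation (rho) of the member ratios with enrichment in free RNA was 0.644 in macrophages, 0.275 in APCs and -0.031 in adipocytes. All genes gave 0.236, 0.106 and -0.066, and the part of free RNA was not tested. With the estimated share subtracted, the macrophage ratios were 1.66 for Eef1a1, 1.20 for Eef2 and 1.19 for Eef1b2, and the APC ratio of Eef1a1 was 0.82. In adipocytes Eef1a1 went from 0.31 to -0.19 and Eef2 from -0.35 to -0.79, while Eif4ebp1 (1.13), Eif4g3 (-0.94) and Eef2k (-0.80) hardly changed.

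Gene length ran alongside the ratios in macrophages. Members shorter than the median member length of 16385.5 bases had a median log2 ratio of 0.57, and 14 of 29 were at least 1.5-fold higher, whereas longer members had a median of 0.17 and 2 of 32 were higher. All measured genes split at the same length had medians of 0.39 and 0.07, with 37.8% and 18.5% higher. Adipocyte members had medians of 0.31 and 0.14, against 0.45 and 0.24 for all genes, and APC members 0.35 and 0.10, against 0.31 and 0.11. The part of length in these differences was not tested.

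**Figure D3:**
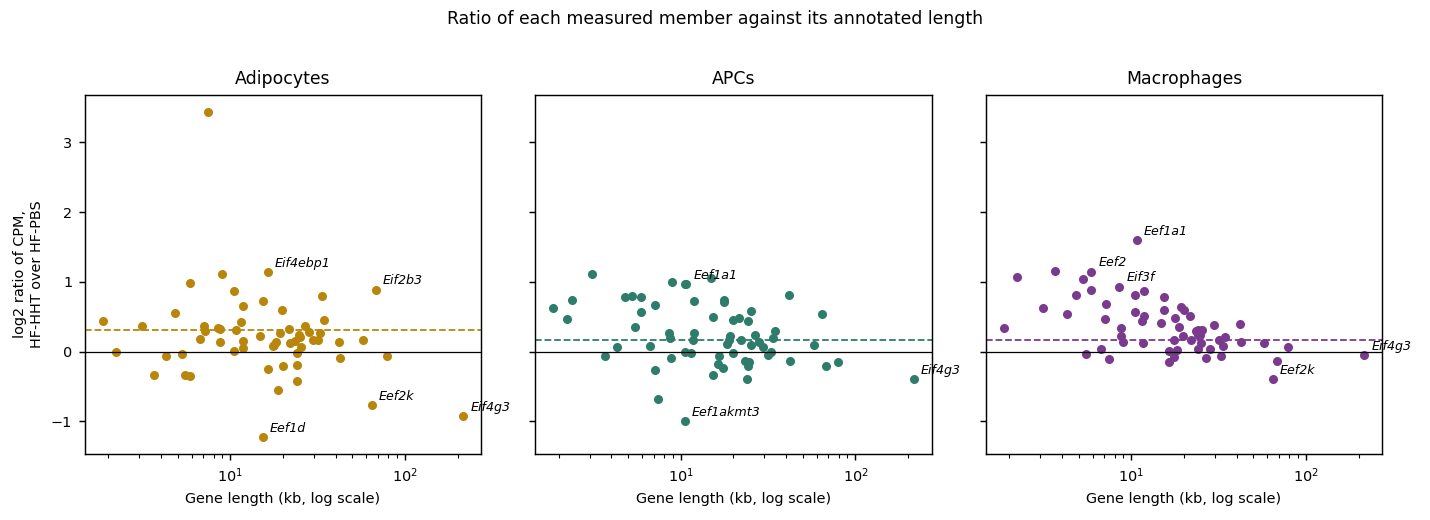
Log2 ratio of CPM (HF-HHT over HF-PBS, y axis) of each measured member against annotated gene length (kb, log scale) in adipocytes, APCs and macrophages. The dashed line is the median of all measured genes, and in macrophages the short genes lie higher (median 0.57) than the long ones (median 0.17).

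T and NK nuclei, dividing nuclei and B cells had larger shares of higher members than the 3 main classes. In T and NK nuclei (665 in HF-PBS and 544 in HF-HHT) 26 of 54 measured members were at least 1.5-fold higher, against 21.0% of all genes, and 1 was lower, against 7.78%. The median was 0.58, against 0.12 for all genes. Relative to the median gene, 15 were higher (16.5% of all genes). The eIF3 scaffold, the role with the most genes, led by number, with 10 of 12 measured subunits higher, or 4 relative to the median gene. Among the 10 were Eif3a at 145 and 241 CPM (0.74, 0.46 to 1.01) and Eif3b at 30.9 and 48.2 CPM (0.64, 0.02 to 1.27). Eif2s1 was at 40.3 and 73.8 CPM (0.87, 0.36 to 1.40) and Eef1b2 at 23.0 and 60.03 (1.38, 0.74 to 2.05). The estimated share of free RNA in this class was 10.1% in HF-PBS against 13.1% in HF-HHT, and its red blood cell markers summed to 12.2 and 474 CPM. Their part in these ratios was not tested.

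In dividing nuclei (271 and 218) 18 of 55 members were higher, against 19.1% of all genes, and 2 lower, against 9.76%, with Eef1b2 at 6.54 and 25.1 CPM (1.94, 1.02 to 2.94) and Eef2 at 24.8 and 52.1 CPM (1.07, 0.55 to 1.60). Eif4ebp1 was lower there, at 20.1 and 9.89 CPM (-1.02, -1.98 to -0.15). B cells had 22 of 45 higher (27.0% of all genes) and 2 lower (20.4%), but rested on 59 HF-HHT nuclei. Their own markers summed to 8995 CPM in the HF-PBS library against 3623 in HF-HHT, those of monocytes and dendritic cells to 532 against 1496, and those of red blood cells to 18.02 against 856, and the part of this in the B-cell counts was not tested. Endothelial nuclei had 10 of 44 higher (23.6%) and 1 lower (10.1%), and monocyte and dendritic nuclei 7 of 33 higher (18.6%) and 1 lower (14.2%). Mesothelial nuclei had a median of -0.03 against 0.09 for all genes, with 9 of 58 higher (23.6%) and 5 lower (13.2%), both below the shares of all genes. Eif4e was at 78.5 and 47.1 CPM in them (-0.74, -1.16 to -0.31) and Eif2b3 at 56.6 and 31.6 (-0.84, -1.36 to -0.33), each in the other direction than in adipocytes.

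**Figure D4:**
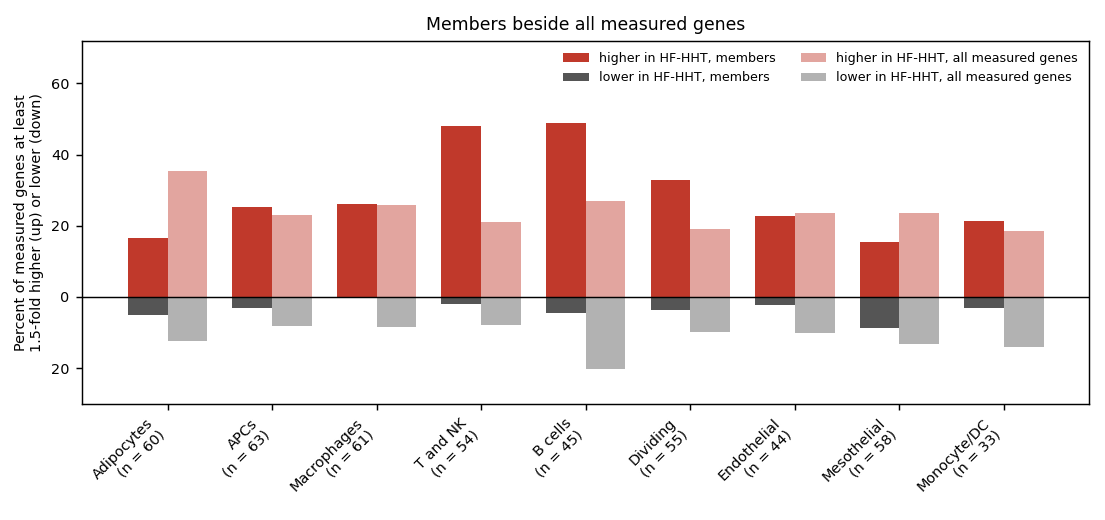
Percent of measured members (dark bars) and of all measured genes (light bars) at least 1.5-fold higher (upward) or lower (downward) in HF-HHT in 9 nucleus classes, with the number of measured members under each name. The member bar for higher genes is below that of all genes in adipocytes, where 10 of 60 members were higher, and above it in T and NK nuclei, where 26 of 54 were.

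Differences between classes were read in each library separately and counted where both gave at least 1.5-fold. Against macrophages, adipocytes had 3 of 60 members higher, where 18.7% of all genes were, and 20 lower, where 28.2% were. The higher ones were Eef2k (3.96-fold in HF-PBS and 3.07-fold in HF-HHT), Eif4ebp1 and Eif4g1 (1.82-fold and 1.84-fold). Among the lower were Eef1a1 (1.996-fold lower in HF-PBS and 4.88-fold lower in HF-HHT), Eif5b (2.40-fold and 2.34-fold) and Eif4a1 (2.01-fold and 2.47-fold). Relative to the median gene the counts were 4 (23.5% of all genes) and 8 (20.5%).

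APCs had 4 of 61 members higher than macrophages (20.5% of all genes) and 7 lower (19.4%). Eif2d, a factor that can deliver initiator tRNA without eIF2, was 1.97-fold and 2.08-fold higher, and Eif2b3 1.68-fold and 1.60-fold. Eif5b was 2.04-fold and 2.09-fold lower. Adipocytes against APCs had 4 of 60 higher (11.6% of all genes), with Eef2k at 4.18-fold in HF-PBS and 1.69-fold in HF-HHT and Eif4ebp1 at 1.72-fold and 4.29-fold, and 12 lower (23.7%). Relative to the median gene, the counts of adipocytes against APCs were 6 (16.2% of all genes) and 6 (16.1%). The contrasts share libraries and classes and are not independent of each other.

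**Figure D5:**
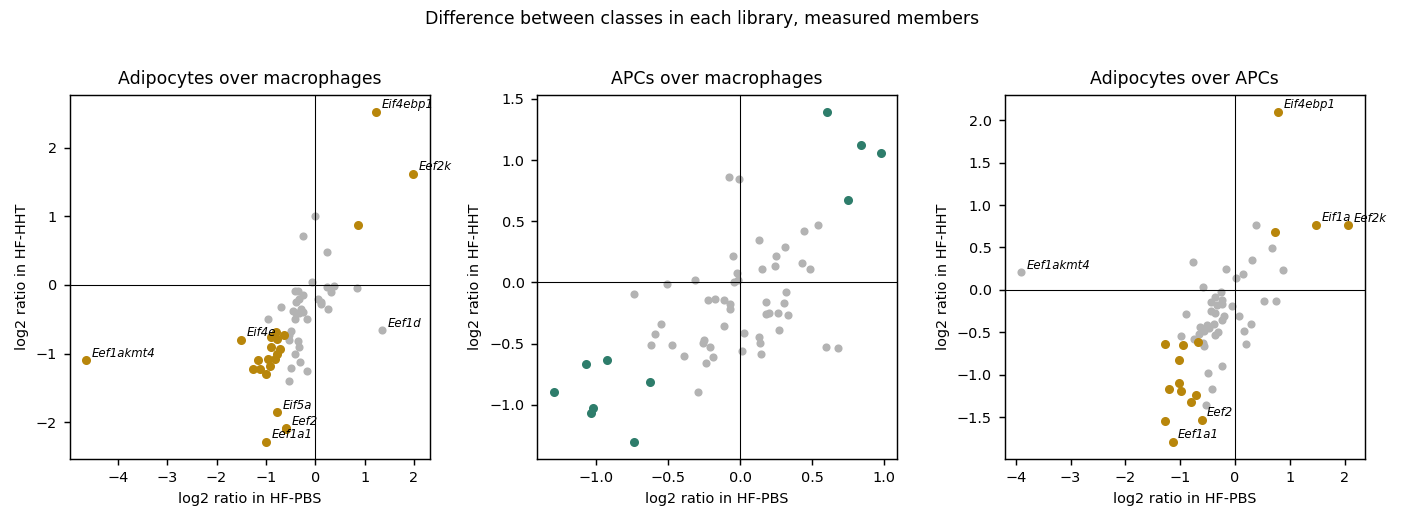
Log2 ratio between classes in HF-PBS (x axis) and in HF-HHT (y axis) for each measured member, with adipocytes over macrophages, APCs over macrophages and adipocytes over APCs from left to right. Coloured points are at least 1.5-fold different in the same direction in both libraries, and Eef2k and Eif4ebp1 stand out as higher in adipocytes.

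Genes around the factors were read from 9 lists, beside the shares of all genes past 1.5-fold, which were 35.4% higher and 12.4% lower in adipocytes, 22.9% and 8.12% in APCs, and 25.8% and 8.34% in macrophages. With so few genes per list, 1 gene moves a share by several percent or more. The 4 eIF2 kinases were measured in each main class, and 1 was past 1.5-fold, Eif2ak2 in macrophages, the kinase that senses double-stranded RNA, at 68.5 and 112 CPM (0.71, 0.59 to 0.82). Of 6 genes of eIF2 dephosphorylation and its response, 3 were higher and 1 lower in adipocytes, 3 of 5 measured were higher in APCs, and 2 were higher and 1 lower in macrophages. The list medians were 0.50, 0.84 and 0.05, against 0.31, 0.17 and 0.16 for all genes. Ppp1r15b, the constitutive partner of the eIF2 phosphatase, was higher in each, at 13.5 and 21.1 CPM in adipocytes (0.64, 0.06 to 1.28), 15.2 and 29.3 in APCs (0.95, 0.48 to 1.42), and 27.8 and 48.5 in macrophages (0.80, 0.63 to 0.98). The transcription factor Atf4 had log2 ratios of -0.14, 0.22 and 0.17 in the same order.

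Of 16 cap and poly(A) partners, 1 was higher in adipocytes and none in APCs, while macrophages had 3 higher and 1 lower, so the shares of higher genes were below those of all genes in each class. The medians were 0.22, 0.03 and 0.06. In macrophages Pabpc1, the poly(A)-binding protein, was at 95.6 and 174 CPM (0.86, 0.77 to 0.95) and Larp1, which binds mRNAs that start with a C and T run, at 141 and 227 (0.69, 0.61 to 0.77). Pdcd4, an inhibitor of the helicase eIF4A, was at 75.6 and 43.5 CPM (-0.80, -0.95 to -0.65). Of the 10 mTORC1 pathway genes, 2 were higher and 2 lower in adipocytes, 1 was higher in APCs, and none was past 1.5-fold in macrophages, with medians of 0.01, 0.12 and 0.03. In adipocytes Rps6kb1, an S6 kinase, was at 130 and 252 CPM (0.96, 0.77 to 1.15), and its paralog Rps6kb2 at 18.5 and 11.5 (-0.68, -1.23 to -0.10). Akt1s1, an inhibitor of mTORC1, was at 10.99 and 6.62 CPM (-0.73, -1.45 to 0.04).

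Genes that modify eIF5A and eEF2, of the hypusine and diphthamide pathways, were higher in 5 of 8 measured in adipocytes (35.4% of all genes), 2 of 6 in APCs (22.9%) and 2 of 9 in macrophages (25.8%). In APCs 1 was lower (8.12% of all genes), and the medians were 0.87, 0.09 and 0.07. The 5 higher genes in adipocytes rested on 1 to 6 UMIs each in HF-PBS. Dph7, of diphthamide synthesis, was at 2.50 and 7.02 CPM in adipocytes (1.49, 0.20 to 3.16) and 5.52 and 12.3 in APCs. Of 21 cytosolic tRNA synthetases, 6 were higher and 1 lower in adipocytes, 1 higher and 1 lower in APCs, and 5 higher in macrophages, among them the tryptophan enzyme Wars at 14.9 and 38.0 CPM (1.35, 1.14 to 1.57). The shares of higher synthetases were below those of all genes in each class. Termination and recycling factors had 1 of 6 higher in adipocytes, 1 lower in APCs and 1 higher in macrophages. Other initiation and recycling factors had 3 of 11, 1 of 10 and 1 of 11 higher, and mitochondrial translation factors 3 of 8, 1 of 8 and 1 of 9 higher, with 1 lower in adipocytes and 1 in APCs. Of these shares of higher genes, that of the mitochondrial factors in adipocytes was above the share of all genes and the others were below it.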

How the data were processed

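Nuclei were isolated from frozen epididymal WAT, flow-sorted and sequenced with the 10x 3′ assay, 1 library per group. The authors counted reads with Cell Ranger 5.0.0 on a mouse genome, and the deposited values are raw UMI counts for every barcode. Whether reads in introns entered the counts is not stated in the sources used here. Nuclei were called by the rules of Cell Ranger (at least 500 UMIs tested against free RNA, false discovery rate 0.01), doublets removed with scanpy 1.11.5, and the limits of the study applied (over 400 genes, both UMIs and genes under the 95th percentile, and under 0.5% of mitochondrial UMIs). Integration of both libraries used Seurat 5.3.0 (R 4.3.3), without the members among the features, into 14 clusters. Clusters were named from marker lists against nuclei of other classes, since the planned comparison with all other nuclei left the largest macrophage cluster unnamed. Sums, ratios and exact intervals were computed in Python 3.11.15 (numpy 2.4.6, scipy 1.17.1, pandas 2.3.3) and tested on simulated sums, in which counting alone put 12.5%, 7.77% and 5.47% of unchanged genes past 1.5-fold in adipocytes, APCs and macrophages. Counts of 0 were replaced by a floor of 3 per library. The erythroid cluster was left out, as were perivascular nuclei, which numbered 28 and 29. Alternatives included TMM factors of edgeR 4.0.16.

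Genes named are the 8 highest and 8 lowest ratios of each main class with at least 50 UMIs (at least 3 per library), 8 with the widest range between classes, fixed core factors and up to 4 genes per list. Other members enter as counts, and Eef1a2, Eif4e1b and Eif2c5 were named after their values were seen. Members and lists were chosen with earlier results of these data known. Coordinates come from GENCODE vM21 on GRCm38.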

Additional observations from a re-analysis of the deposited data

Results flagged for a closer look

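For 2 members the HF-HHT over HF-PBS ratio was past 1.5-fold in opposite directions in 2 of the 3 main classes, and the difference itself was not tested, since each class has 1 library per group. The share of all measured genes that did the same was not counted. Eef1d had a log2 ratio of 0.78 in macrophages and -1.23 in adipocytes, with 202 and 173 UMIs in macrophages and 48 and 102 in adipocytes. In the larger finer macrophage clusters its log2 ratios were 0.40, 0.44, 0.85, 0.14 and 0.07. Only that of 0.85 (0.14 to 1.63) was past 1.5-fold, and the other intervals held 0. Eef1akmt4 had 3.44 in adipocytes, from 1 UMI against 54 in the HF-HHT library, but -0.67 in APCs, from 38 and 13, with an APC interval that holds 0.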

How the results depend on the processing

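With TMM factors, median-of-ratios factors and centring on the median gene, in that order, the adipocyte counts past 1.5-fold were 6, 5 and 4 higher and 8, 8 and 8 lower, their median -0.10, -0.13 and -0.14, and their sum -0.27, -0.29 and -0.31. These counts are of 60 members. Of all 12592 genes measured in adipocytes, 3238, 3098 and 3026 were higher and 2418, 2516 and 2583 lower under the same settings. In APCs the higher counts were 10, 9 and 9 of 63, the median 0.0134, 0.0013 and 0.0002, and the sum -0.10, -0.12 and -0.12. Of all 12162 genes measured there, 2064, 2014 and 2011 were higher. In macrophages the median was 0.16, 0.14 and 0.14, and the sum 0.11, 0.0899 and 0.0893. Subtracting free RNA gave 6 of 60 members lower in adipocytes, with 1644 of all 12592 genes lower. In APCs it gave 4 of 63 members lower, with 1203 of 12162 genes, and a sum of -0.0018. Averaging over nuclei gave 1 member lower in APCs, with 1123 of 12162 genes. A minimum of 50 UMIs gave 8 of 54 members higher in HF-HHT in APCs, with 1800 of 9753 genes. It gave 2 of 53 members higher in APCs than in macrophages, with 1686 of 9098 genes. Without upper limits on depth the macrophage sum was 0.28. Centring the class contrasts gave 8 members lower in adipocytes than in macrophages (20.5% of all genes) and 6 lower than in APCs (16.1%). Of the named macrophage ratios past 1.5-fold, 2 took the other sign in a single cluster, Eif2b2 at -0.0086 and Eif3f at -0.59. Of the values of single members under alternatives, 1749 stayed within the counting interval of the main value and 253 did not. Causes were not tested. No paired analysis was possible because each group has 1 library, and for the same reason no library could be left out. Depth limits adipocytes most, whose HF-PBS sum rests on 154 nuclei.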

Other observations

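The epithelial clusters, which held HF-HHT nuclei alone, were not compared. In ciliated epithelium (118 nuclei) Eef2k, the kinase of eEF2, was at 525.5 CPM (exact 95% counting interval 476 to 578) and Eef2kmt, which methylates eEF2, at 31.4 (20.3 to 46.3). In duct epithelium (686 nuclei) Eef2k was at 23.2 CPM (18.1 to 29.4) and Eef2kmt at 7.96 (5.10 to 11.9). Other members differed too, among them Eif1 at 118 and 33.5 CPM and Eef1a1 at 266 and 173 in the ciliated and duct classes. Eif2s3y went the other way, at 79.0 and 116 CPM. How many of all genes differed between the 2 classes was not counted. Eif4g3 was at 538 CPM (488 to 592) in the ciliated and 289 (270 to 309) in the duct class.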
